A study of Mus musculus with 2 samples.

Results

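Genes of the collagens, laminins and matrix glycoproteins were followed through the cell classes of the mouse mammary gland in late pregnancy, with and without the transcription factor Ehf. Members were all gene symbols of the form Col, a number, a and a number, the laminin alpha, beta and gamma chains (Lama, Lamb, Lamc), the fibulins (Fbln), the fibrillins (Fbn), and Nid1, Nid2, Hspg2, Sparc, Fn1, Tnc, Thbs1, Agrn and Dag1. Of 25865 features with a symbol, 70 matched, and 57 of these were kept because they held at least 50 unique molecular identifiers (UMIs, each counting 1 captured transcript) over all barcodes of both libraries. The lowest member inside this minimum was Nid2 with 108 UMIs, and the highest outside it were Col8a1 and Col11a2 with 42 each. The other genes outside were Col20a1 with 40, Col13a1 with 39, Col6a5 with 28, Col8a2 with 17, Col28a1 with 13, Col19a1 with 8, Col2a1 with 7, Col10a1 with 5, Col26a1 with 3, Col22a1 with 1 and Col24a1 with 0 UMIs. The whole library total chose the members, so that total is a description and supports nothing.

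The data were 2 single-cell RNA libraries made with 10x Genomics chemistry, 1 of Ehf knockout females (Ehf_KO, strain EhfKO) and 1 of wild type females (WT), all adult and 18.5 days pregnant. Glands of 2 females were pooled into each library, and the sort kept cells without Ter119, CD31 or CD45, which removes most red, endothelial and white blood cells. The glands had been digested with collagenase, hyaluronidase, trypsin and dispase, enzymes that remove deposited matrix, so the counts speak of transcripts in cells and not of matrix. The labels do not give the deleted stretch of Ehf, and 2 animals pooled in 1 library cannot be told apart. With 1 library per genotype no difference has a replicate check and no test was run. Intervals are exact, at 95%, and cover counting error only.

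The extracellular matrix of the gland has a thin basement membrane under the epithelium and a fibrous stroma around it. The basement membrane is built from a laminin network, made of joined alpha, beta and gamma chains, and a type IV collagen network, bridged by nidogens and by the heparan sulfate proteoglycan perlecan. Fibrillar collagens such as types I, III and V give the stroma its strength, and type VI collagen forms beaded filaments near cells. Basal (myoepithelial) cells touch the basement membrane and wrap the alveoli, luminal secretory cells make milk, and hormone-sensing luminal cells carry the steroid hormone receptors. Ehf is an ETS family factor of epithelial cells, and this family binds DNA at a core of GGAA.

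The knockout library held 7275 barcodes and 40066795 UMIs, the wild type library 11258 barcodes and 48720938 UMIs, and 25 barcode sequences occurred in both. After filters on genes, UMIs and mitochondrial share, 6561 and 9089 cells were kept and clustered without any member gene. Clusters were named from fixed marker genes, none of them a member, and the names are rebuilt rather than the authors' own. Basal-like cells numbered 5525 (knockout) and 6221 (wild type), luminal secretory-like (alveolar-like and luminal progenitor-like together) 824 and 2559, hormone-sensing-like 151 and 125, and fibroblast-like 23 and 51. Median depths in the same order were 3682 and 2042, 10543 and 9006, 7784 and 4403, and 5200 and 3483 UMIs per cell. Ehf itself held 1077 UMIs in knockout and 3341 in wild type luminal secretory cells, or 80.7 and 115 CPM. With 3' tags and no stated deletion this checks the labels only weakly.

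Levels below are in CPM, the UMIs of a gene over all UMIs of that class and library, scaled to the usual common total. Knockout levels were divided by 1 common factor per class, so that the median log2 ratio over all genes with at least 50 UMIs in the class was 0. This factor was close to 1 in basal, hormone-sensing and fibroblast-like cells. In luminal secretory cells, where milk protein genes took 10.3% of knockout and 38.9% of wild type UMIs, the median of all genes stood 0.86 above 0 on the log2 scale before scaling and 0.31 above 0 for UMIs outside milk genes. A 3' tag counts a transcript whatever its length, so levels were not divided by length, though capture can differ between genes. Levels within clusters, percents of another class's level and folds over the next class are on plain CPM, without the common factor. Ratios within clusters use a factor of the same kind for each cluster. A ratio past 1.5-fold is called higher or lower, which is a rule of size and not a test.

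Members made up a small part of the epithelial RNA and a large part of the fibroblast RNA. They took 0.871% of knockout and 0.939% of wild type UMIs in basal cells, 0.0739% and 0.0426% in luminal secretory cells, 0.0688% and 0.0877% in hormone-sensing cells, and 5.14% and 7.41% in fibroblast-like cells. These are shares of all UMIs, before the common factor. In luminal secretory cells milk protein genes took 10.3% of knockout and 38.9% of wild type UMIs, so the 2 shares there are not on a like base. Among these 4 classes, the one with the highest mean level over both libraries was fibroblast-like for 34 members, basal for 20, luminal secretory for 2 and hormone-sensing for 1. It stood more than 2-fold above the next class for 30, 15, 2 and 1 of these. The plot of levels by class shows the split.

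**Figure D1:**
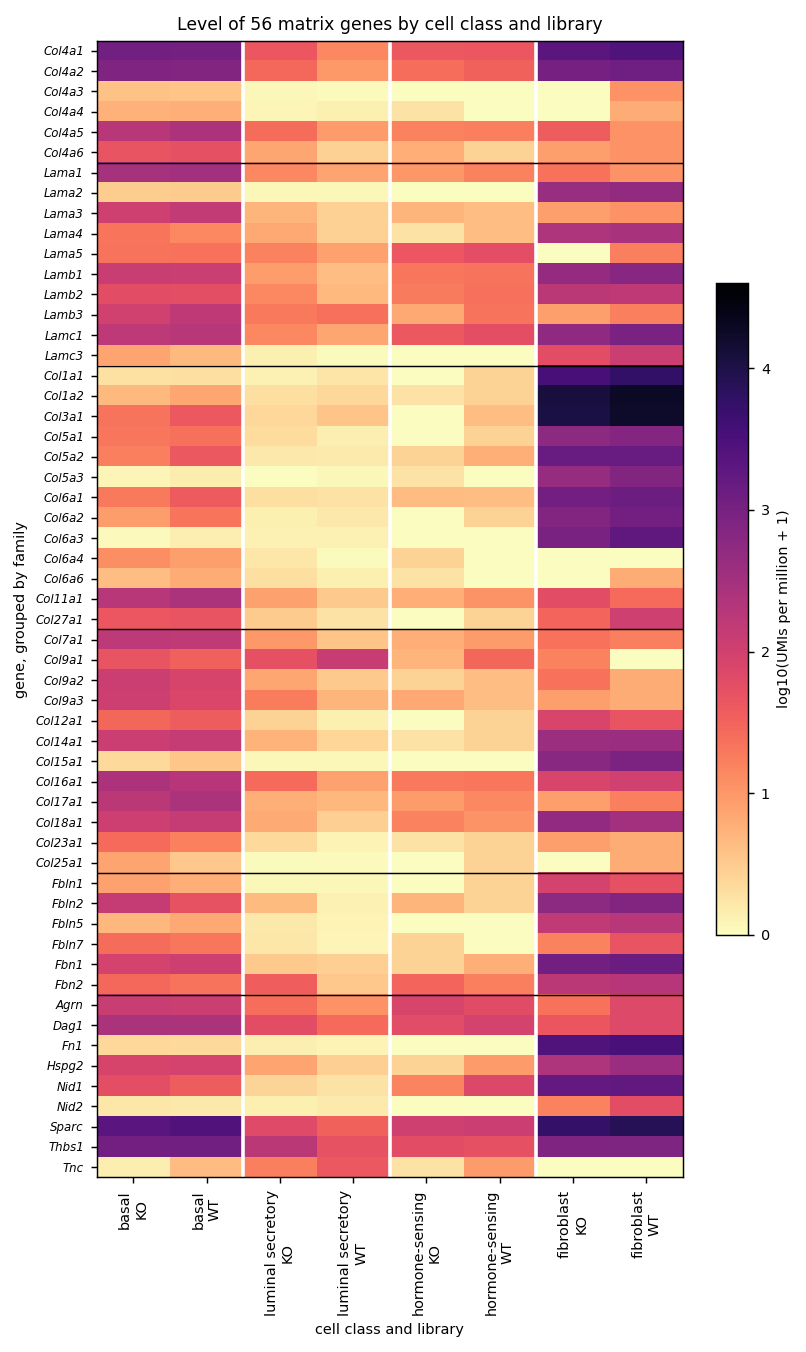
Level of 56 of the 57 members (rows, grouped by family) in 4 cell classes and 2 libraries (columns), as log10 of CPM plus 1, before scaling between libraries. Col4a1, Col4a2, Sparc and Thbs1 are dark in basal columns as well as fibroblast columns, Col1a1, Col1a2, Col3a1 and Col6a3 are dark in fibroblast columns only, and Tnc and Col9a1 are darkest in luminal secretory columns.

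Of the 20 basal-highest members several belong to the epithelial side of the basement membrane, while Col4a1, Col4a2, Lamb1, Lamc1, Hspg2 and Nid1 were fibroblast-highest. Lama1, the alpha chain of the first laminin described, stood 18.9 times above its next class, with levels of 297 in knockout and 318 in wild type basal cells. Col17a1, the transmembrane collagen of hemidesmosomes, stood 18.7 times above, and Lama3, the alpha chain of the hemidesmosomal laminin, 13.6 times above. That next class was fibroblast-like for all 3, with 5, 4 and 3 UMIs over both libraries, so the size of these folds is uncertain. Lamb3, a partner of Lama3, and Col7a1, the anchoring fibril collagen, were basal-highest too, as were Col4a5, Col4a6, Col9a2, Col9a3, Col11a1, Col16a1, Col23a1 and Dag1, the dystroglycan receptor. Thbs1, a secreted adhesive glycoprotein, was shared with fibroblast-like cells, where its level was 775 (knockout) and 837 (wild type), against 1095 and 1175 in basal cells.

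Fibroblast-like cells held the highest level of fibrillar collagen. Col1a2 reached 11198 and 18420 CPM, Col3a1 10423 and 16992, Col1a1 3370 and 5765, and Fn1, fibronectin, 2680 and 3332 in knockout and wild type, from 23 and 51 cells. In basal cells Col1a1 had 22 and 15 UMIs in all, or 0.026% and 0.018% of the fibroblast level, and Fn1 had 33 and 18 UMIs. The 12 fibroblast markers measured lay at a median of 0.344% (knockout) and 0.908% (wild type) of their fibroblast level in basal cells, from 0.0022% for Dpt up to 7.48% and 7.51%. Basal cells held Col6a1 at 1.60% and 2.88%, Col5a2 at 1.09% and 2.74%, and Col6a2 at 1.01% and 1.75% of the fibroblast level in knockout and wild type.

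A class with few cells can have the highest level of a gene that mostly comes from elsewhere. Of all UMIs of Sparc, a collagen-binding glycoprotein, in kept and named cells, 92.0% came from basal cells and 2.32% from fibroblast-like cells. The share from basal cells was 92.5% for Col4a1 and 93.4% for Col4a2, the main chains of type IV collagen, although among the 4 classes both had their highest mean level in fibroblast-like cells. Among the 48 endothelial-like wild type cells, which the CD31 sort had not removed, Col4a2 reached 1387 CPM (509 UMIs), against 1188 (227 UMIs) in wild type fibroblast-like cells, and Hspg2, perlecan, reached 422 (155 UMIs).

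In basal cells, 53 of the 57 members held at least 50 UMIs over both libraries. Of these, 6 (11.3%) were higher and 10 (18.9%) lower in the knockout library past 1.5-fold, against 6.07% higher and 6.47% lower over all 12215 genes measured there. Their median log2 ratio was -0.08, against 0 for all genes by construction. Col1a1, Col5a3, Col6a3 and Nid2 were too low in basal cells to measure.

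All type IV collagen chains stayed within 1.5-fold between the libraries. Col4a1 held 28401 and 15675 UMIs, or 1176 and 1059 CPM, a log2 ratio of 0.15 (0.12 to 0.18). Col4a2 stood at 785 and 722 CPM, with 0.12 (0.09 to 0.16). These genes lie beside each other on chromosome 8 of GRCm38 (Col4a1 from 11198423 to 11312889, Col4a2 from 11312805 to 11449287) and their products assemble into 1 trimer. The count of Col4a1 over that of Col4a2 was 1.5 (1.47 to 1.52) in knockout and 1.47 (1.43 to 1.5) in wild type basal cells. Col4a5 had 187 and 246 CPM (-0.39, interval -0.46 to -0.33) and Col4a6 47.7 and 54.3 (-0.19, interval -0.32 to -0.05). Col4a5 was below 0 in 8 of 9 basal clusters (-0.84 to 0.03), with the interval below 0 in 7. The other chains were the sparse Col4a3 (69 and 39 UMIs) and Col4a4 (112 and 70 UMIs).

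Among the 11 laminin chains, 2 were higher, 1 lower and 8 within 1.5-fold in basal cells. The partners Lama1, Lamb1 and Lamc1 stood at 297 and 318, 122 and 119, and 168 and 183 CPM in knockout and wild type. Lamb3, the beta chain of the hemidesmosomal laminin, was lower, with 2391 and 2336 UMIs, levels of 99.0 and 158 and a log2 ratio of -0.67 (-0.76 to -0.59). Its partner Lama3 stood closer, at 104 and 139 (-0.42, interval -0.50 to -0.33). The count of Lamb3 over that of Lama3 was 0.954 (0.902 to 1.01) in knockout and 1.14 (1.07 to 1.21) in wild type basal cells. Col17a1, which sits in the same hemidesmosome, was just inside the threshold at 175 and 258 CPM (-0.56, interval -0.63 to -0.50).

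Other bridging and adhesive genes of the basal layer mostly stayed within 1.5-fold. Sparc, the most abundant member, held 51265 and 38904 UMIs, or 2122 and 2629 CPM, a ratio of -0.31 (-0.33 to -0.29), and Thbs1 26456 and 17387 UMIs with a ratio of -0.10 (-0.13 to -0.07). Hspg2 stood at 83.8 and 86.8 CPM, Agrn, which links laminin to cell receptors, at 126 and 120, and Dag1, the receptor itself, at 261 and 259. None of these 5 passed 1.5-fold, while Nid1, another bridge of the same layer, did. Col7a1 stood at 168 and 152 CPM and Col16a1, a fibril-associated collagen, at 251 and 194, both higher in the knockout but inside the threshold.

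The higher laminin chains were low in basal cells. Lama4, an alpha chain of vessel and fat basement membranes, had 482 and 188 UMIs (20 and 12.7 CPM, log2 ratio 0.65, interval 0.41 to 0.90). Lamc3, a rare gamma chain, had 157 and 54 UMIs (0.83, interval 0.38 to 1.31). Lama5 (20.9 and 22.2 CPM), Lamb2 (58.8 and 55.0 CPM) and the sparse Lama2 (48 and 32 UMIs) were within 1.5-fold.

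Fbln2, fibulin 2, which links elastic fibres and basement membrane and lies on chromosome 6 from 91212460 to 91272540, had the highest ratio of the 53. Knockout basal cells held 3241 UMIs and wild type basal cells 716, or 134 and 48.4 CPM, a log2 ratio of 1.47 (1.35 to 1.59). After each cell was thinned to 2000 UMIs, 20.5% (19.4 to 21.6) of 5329 knockout and 9.22% (8.25 to 10.3) of 3277 wild type basal cells held an Fbln2 UMI, with 196 and 2944 shallower cells left out. Without thinning the shares were 36.1% and 9.63%. In luminal secretory cells the thinned share was 1.00% and 0.0407%. No cell held more than 11 Fbln2 UMIs, so the sum did not rest on a few cells.

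The other members past the threshold were at lower levels. Col25a1, a transmembrane collagen, had 157 and 35 UMIs (log2 ratio 1.46, interval 0.92 to 2.03) and Col23a1, another transmembrane collagen, 638 and 227 UMIs (0.78, interval 0.56 to 1.01). Nid1, nidogen 1, which bridges laminin and type IV collagen, had 1365 and 537 UMIs, or 56.5 and 36.3 CPM (0.64, interval 0.49 to 0.79). With a stricter cell filter (1000 genes, 2000 UMIs, at most 10% mitochondrial UMIs) Nid1, Lama4 and Lamc3 came to 0.53, 0.55 and 0.56, inside the threshold. That left 3 of 51 members higher, and the share over all genes was not computed for that setting.

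Lower members in basal cells were mostly collagens of the stroma. Col6a2 had 187 and 293 UMIs (7.74 and 19.8 CPM, log2 ratio -1.35, interval -1.63 to -1.09) and Col6a1 437 and 569 UMIs (18.1 and 38.4 CPM, -1.09, interval -1.27 to -0.91). Col5a2, a regulator of fibril width, had 396 and 603 UMIs (16.4 and 40.7 CPM, -1.31, interval -1.5 to -1.13), and Col3a1 510 and 600 UMIs (21.1 and 40.5 CPM, -0.94, interval -1.11 to -0.77). Col6a1 and Col6a2 lie near each other on chromosome 10, at 76708792 to 76726044 and 76595756 to 76623630. All 4 were thus lower in the knockout library.

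Of the family members beside them, Col5a1 did not pass 1.5-fold (19.4 and 23.1 CPM, -0.25, interval -0.46 to -0.05), and Col6a4 went the other way without passing it (11.1 and 7.43 CPM, 0.57, interval 0.25 to 0.91). Col1a2 (90 and 93 UMIs, -0.75), Col6a6 (77 and 79 UMIs, -0.74), Fbln5 (95 and 88 UMIs, -0.60) and Col15a1 (30 and 37 UMIs, -1.01) completed the lower group with Tnc. By role, 3 of 6 fibrillar collagens and 3 of 4 type VI collagens measured in basal cells were lower and none higher, against 6.47% lower over all genes. The call of Col1a2, one of the fibrillar genes, turned to 0.78 with free RNA subtracted. The 13 fibroblast marker genes together stood at 616 CPM in knockout and 730 in wild type basal cells, with Dcn making up 10183 of 14883 and 7447 of 10809 UMIs. Their part in these ratios was not tested.

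**Figure D2:**
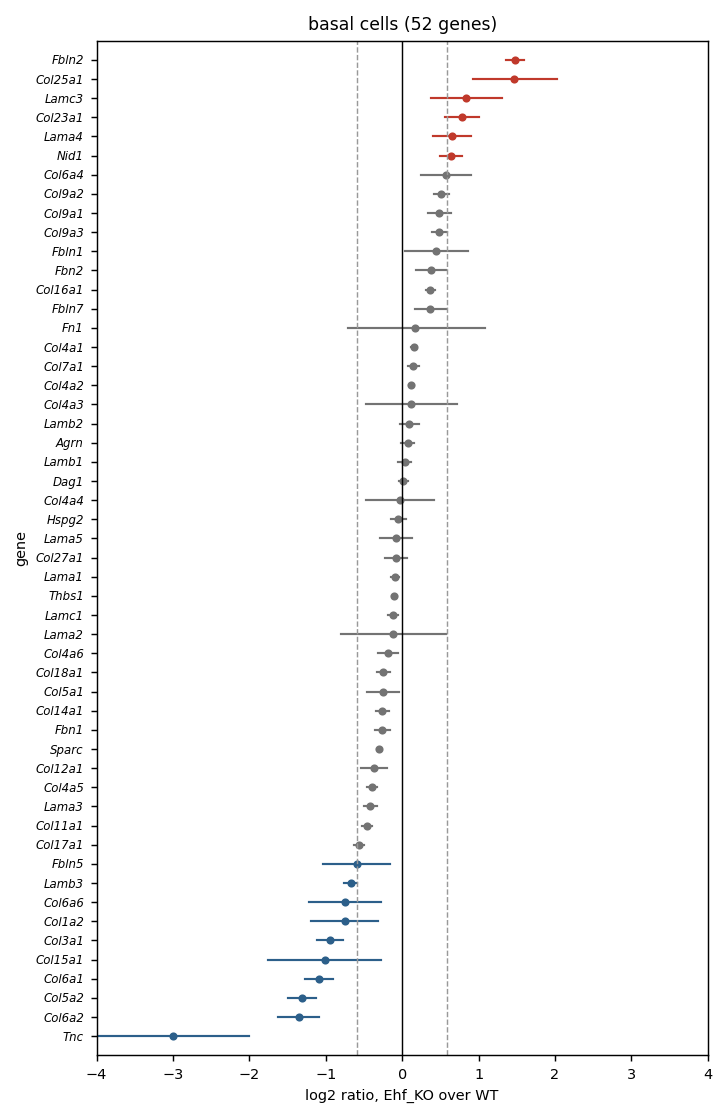
Log2 ratio of knockout over wild type for 52 of the 53 members measured in basal cells, in order of the ratio; bars are 95% counting intervals, dashed lines mark 1.5-fold, and red and blue mark members past it. The 6 higher members run from Nid1 at 0.64 to Fbln2 at 1.47, and the 10 lower ones from Fbln5 at -0.60 to Tnc at -3.0.

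Basal cells fell into 11 clusters, and 4 of these (0, 1, 5 and 8) came mostly from 1 library. Cluster 0 held 98 knockout and 2777 wild type cells, cluster 1 held 2238 and 197, and cluster 5 held 1068 and 129, so such a cluster may be a library rather than a kind of cell. Within the 9 clusters that had at least 50 cells of each library, Lamb3, Col17a1, Col11a1 and Sparc were lower in the knockout in 9 of 9. Lamb3 ranged from -1.21 to -0.19 and Col17a1 from -0.77 to -0.05. Sparc stayed within 1.5-fold throughout, from -0.32 to -0.04, with the interval below 0 in 6. Fbln2 was higher in 8 of the 8 clusters where it had enough counts, from 0.20 to 2.42, and past 1.5-fold in 4 of them.

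The level of Fbln2 also differed between clusters within each library. Cluster 1 held 168 CPM (knockout) and 138 CPM (wild type), and cluster 2 held 51.7 and 33.3. Inside clusters 0, 1, 2, 5 and 6 the log2 ratio was between 0.20 and 0.65, below the 1.47 of all basal cells, and in clusters 9, 10 and 12 between 1.11 and 2.42. How far the mix of clusters and the genotype each bear on the total cannot be told apart with 1 library of each.

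Col5a2 was lower in 6 of 6 clusters (-1.94 to -0.01), Col6a1 in 6 of 7 (-1.68 to 0.11) and Col6a2 in 5 of 6 (-2.25 to 0.26). The exception for both type VI chains was cluster 6, led by Lgr5, Ltbp2 and Gfra2, where Col6a1 stood at 55.9 and 51.5 CPM. In the knockout library that cluster was the highest of the basal clusters for Col6a1, and it was lowest for Col4a1, at 485 in knockout and 685 in wild type cells. Nid1 was higher in 6 of 8 clusters (-0.16 to 1.13), and Lama4 in 3 of 6 (-1.49 to 1.04), so its direction did not hold within clusters.

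**Figure D3:**
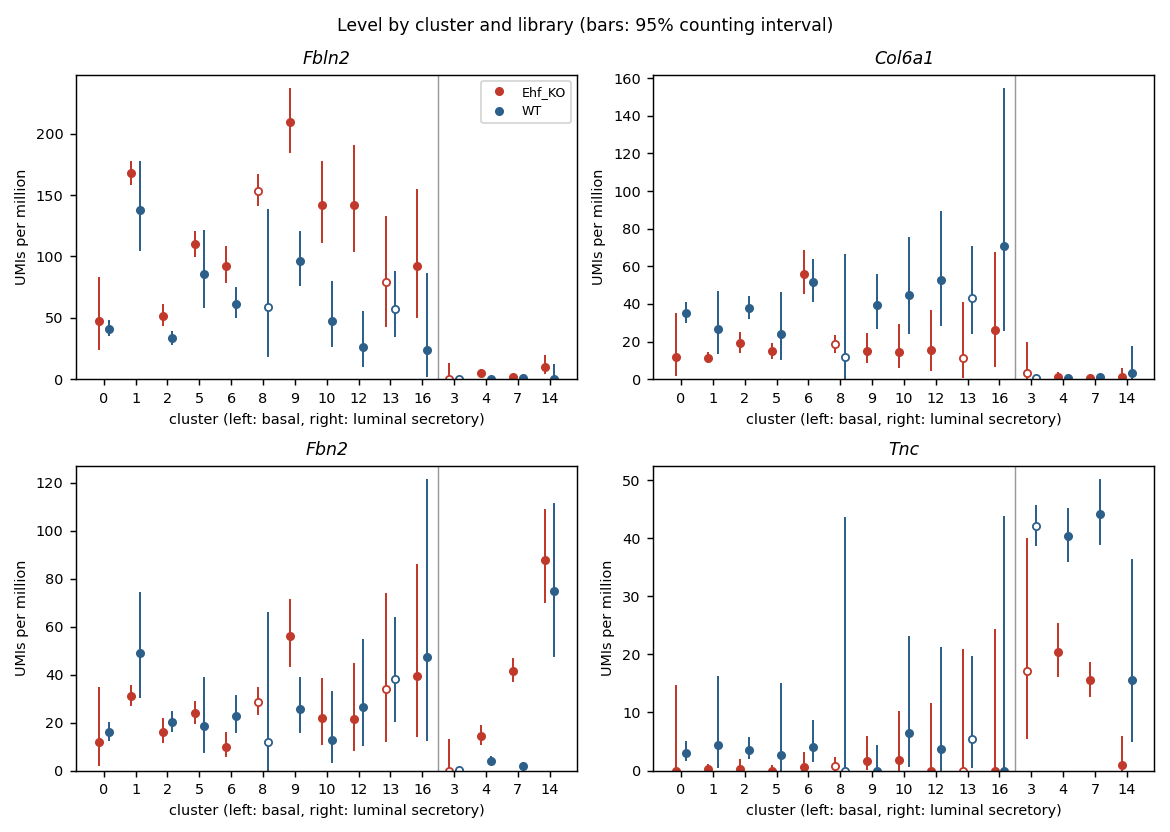
Level of Fbln2, Col6a1, Fbn2 and Tnc in plain CPM in each basal cluster (left of the line) and luminal secretory cluster (right). Knockout is in red and wild type in blue. Bars are 95% counting intervals and open symbols mark clusters with under 50 cells of a library. Fbln2 is at 168 and 138 in cluster 1 and at most 10.2 in luminal secretory clusters, while Tnc is at most 6.38 in basal clusters and between 40.4 and 44.2 in wild type clusters 3, 4 and 7.

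Only 2 members had their highest level in luminal secretory cells, and both were lower in the knockout library. Tnc encodes tenascin C, a large glycoprotein of remodelling matrix, and Col9a1 the alpha 1 chain of type IX collagen, which decorates collagen II fibrils in cartilage. The stretch before the annotated start of each gene is shown, because these are the members that peak in the class where Ehf is highest and move together there. Both are written 5′ to 3′ on the strand of the gene, from RefSeq on GRCm38.p6, with matches of the ETS core GGAA on either strand (TTCC when read on this strand) in capitals.

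Tnc, chr4:64047016-64047265, minus strand: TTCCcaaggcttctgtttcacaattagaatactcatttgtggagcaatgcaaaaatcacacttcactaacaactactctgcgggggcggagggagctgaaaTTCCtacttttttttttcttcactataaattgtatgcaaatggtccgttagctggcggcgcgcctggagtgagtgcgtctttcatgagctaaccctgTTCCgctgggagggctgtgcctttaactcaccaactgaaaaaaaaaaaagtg
Col9a1, chr1:24177360-24177588, plus strand: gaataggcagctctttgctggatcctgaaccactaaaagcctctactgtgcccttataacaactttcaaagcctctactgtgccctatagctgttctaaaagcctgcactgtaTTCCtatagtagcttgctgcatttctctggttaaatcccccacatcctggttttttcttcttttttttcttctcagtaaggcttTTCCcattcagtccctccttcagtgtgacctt

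The Tnc stretch held 3 and the Col9a1 stretch 2 such matches, all in the reverse reading. Windows of 250 bases before to 50 bases after the start were found for 41 of the 57 members, 50 windows in all. GGAA was in 47 of these 50 (94%) and in 96% of all 32851 windows, so its presence sets no gene apart. The longer GGAAGT was in 7 of 50 (14%, against 23.8% of all) and CCGGAAG, which contains the GGAA core, in 0 of 50 (against 8.86%). TATAAA was in 4 of 50 (8%, against 13.6%), among them that of Tnc. Both strands were searched, and a match or its absence describes these letters and nothing about binding.

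Tnc held 214 UMIs in 824 knockout and 1216 in 2559 wild type luminal secretory cells, or 8.81 and 41.7 CPM, a log2 ratio of -2.24 (-2.46 to -2.03), and -1.38 on plain CPM. Col9a1 held 715 and 3804 UMIs, or 29.5 and 131 CPM, a ratio of -2.15 (-2.27 to -2.03), and -1.29 on plain CPM. After thinning to 2000 UMIs, a Tnc UMI was found in 3.39% (2.24 to 4.89) of luminal secretory cells of the knockout and 7.78% (6.75 to 8.91) of those of the wild type, against 0.0751% and 0.549% of basal cells. For Col9a1 the luminal secretory shares were 8.16% (6.35 to 10.3) and 21.3% (19.7 to 23.0). Without thinning they were 18.3% and 32.0% for Tnc and 38.2% and 59.2% for Col9a1. The knockout library was thus lower in level and in share of cells for both genes under either scaling.

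Clusters of luminal secretory cells were also shared unequally. The class was mostly cluster 3 (20 knockout and 1307 wild type cells) and cluster 4 (360 and 862) in the wild type, and clusters 4, 7 (313 and 328, led by cell cycle genes) and 14 (131 and 62, with Kit and Aldh1a3 among its top 10 genes) in the knockout. Within cluster 4 the log2 ratio was -1.35 for Tnc (86 and 324 UMIs) and -1.18 for Col9a1 (305 and 1023 UMIs). Within cluster 7 it was -2.24 for both, from 122 and 256 Tnc and from 372 and 785 Col9a1 UMIs. Cluster 14 held 1 and 5 Tnc UMIs and 5 and 4 Col9a1 UMIs, too few to compare.

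Type IX collagen is a trimer of Col9a1, Col9a2 and Col9a3 chains, and the 3 genes did not share a class. Col9a2 and Col9a3 were basal-highest, at 118 and 108 CPM in knockout and 82.8 and 77.4 in wild type basal cells. In basal cells all 3 had like ratios, 0.49 for Col9a1, 0.51 for Col9a2 and 0.49 for Col9a3, inside the threshold. The count of Col9a1 over that of Col9a2 was 0.39 (0.37 to 0.42) and 0.40 (0.36 to 0.45) in knockout and wild type basal cells. In luminal secretory cells it was 8.72 (6.93 to 11.1) and 57.6 (45.2 to 74.7), where Col9a2 held only 82 and 66 UMIs.

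In basal cells Tnc had 10 knockout and 49 wild type UMIs, a log2 ratio of -3.0 (-4.15 to -2.0), the lowest of the 53. On plain CPM these levels were 2.57% and 7.93% of those in luminal secretory cells. The milk genes Csn1s1, Csn2, Wap, Lalba and Glycam1, which basal cells should lack, lay between 1.34% and 1.66% of their luminal secretory level in knockout basal cells and between 3.56% and 4.90% in wild type basal cells. Their part in the basal Tnc ratio was not tested.

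Fbn2, fibrillin 2, a microfibril protein of developing tissue, had the highest ratio of any member in luminal secretory cells. Its UMIs numbered 474 in knockout cells and 70 in wild type cells, or 19.5 and 2.40 CPM, a log2 ratio of 3.02 (2.66 to 3.41), and 3.88 on plain CPM. The thinned share of cells with an Fbn2 UMI was 7.15% (5.46 to 9.17) in knockout and 0.814% (0.498 to 1.25) in wild type luminal secretory cells, and 24.0% and 1.76% without thinning. In basal cells it was 4.5% and 4.24%. The 474 UMIs came from 198 cells, and no cell held more than 9.

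The difference in Fbn2 was not even among clusters. In cluster 7 Fbn2 stood at 41.6 plain CPM in the knockout (327 UMIs) and 1.73 in the wild type library (10 UMIs). The log2 ratio, scaled within the cluster, was 3.86 (2.97 to 4.94). In cluster 4 Fbn2 stood at 14.5 and 4.11 plain CPM, with a scaled ratio of 1.45 (0.82 to 2.11). In the progenitor-like cluster 14 both libraries were high, at 87.8 and 74.7 CPM, and the ratio was 0.22 with an interval from -0.45 to 0.93. That cluster made up 15.9% of the class in the knockout but 2.42% in the wild type library. On plain CPM, Fbn2 in luminal secretory cells was at 133% (knockout) and 11.6% (wild type) of its basal level. Its levels in basal cells were 26.9 and 20.7 CPM.

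Counted over the class, 34 members were measured in luminal secretory cells, and 17 (50%) were higher and 5 (14.7%) lower in the knockout past 1.5-fold. The same shares over all 11147 genes were 15.5% and 18%, and the median of the 34 was 0.59. The higher group held all 4 type IV chains measured, with Col4a1 at 24.2 and 12.9 CPM (587 and 376 UMIs, log2 ratio 0.91, interval 0.72 to 1.1) and Col4a2 at 15.1 and 8.62 (0.81, interval 0.57 to 1.04). It held Thbs1 (2307 and 1413 UMIs, 95 and 48.5 CPM, 0.97), Col16a1 (0.97), Col9a3 (1.19), Hspg2 (0.93), Lamb2 (0.92) and Lama4 (0.85), and at fewer counts Fbln2 (48 and 9 UMIs, 2.68). Apart from Thbs1, none of the 17 stood above the 24.2 CPM of Col4a1 in the knockout. Within clusters 4, 7 and 14 the type IV ratios were uneven. Col4a1 ran from 0.27 to 2.00 and Col4a2 from -0.05 to 2.10, with the interval above 0 in 2 and 1 of 3 clusters. Col4a5 ran from -0.45 to 0.65 and Col4a6 from 0.03 to 0.64, with the interval above 0 in 2 and 0. Thbs1 ran from 0.37 to 0.88, with the interval above 0 in 3 of 3.

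On the scaled levels 2 of the 12 basal marker genes were higher past 1.5-fold in the same cells, 0 lower and 10 within, with a median of 0.27. In basal cells 0 of the 12 were higher and 2 lower, with a median of -0.38. Doublets were removed unevenly. The percents that follow are without the common factor. As a share of their own level in basal cells on plain CPM, the 12 basal markers lay at 2.01% to 10.6% (median 3.27%) in knockout and at 0.867% to 2.64% (median 1.09%) in wild type luminal secretory cells. None of the 12 was at 0, and Krt14 had 939 and 723 and Acta2 5434 and 5592 UMIs there. The doublet caller took 0 cells from the knockout and 122 from the wild type library, so its calls do not treat the libraries alike. With its wild type threshold in both libraries 12 of 32 members were higher and 6 lower, with a median of 0.44. With no doublets left out 8 of 36 were higher and 9 lower, the median was -0.04, and Col4a2 came to -0.01. The shares over all genes were not computed for these settings, so these counts describe the setting and not the members.

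Of the 17 higher members, 9 lay within the range of the basal markers in both libraries, among them Col4a1, Col4a2, Col11a1, Col7a1, Hspg2 and Fbln2. The ratio of Col4a1 to Col4a2 counts in luminal secretory cells was 1.60 (1.41 to 1.83) and 1.5 (1.27 to 1.76), which overlaps that of basal cells. Another 7 lay above the marker range in both libraries: Thbs1 at 15.9% and 4.13% of its basal level, Col4a5, Col4a6, Col9a3, Lamb2, Lama4 and Fbn2. The part of basal RNA or of basal cells joined to luminal cells in the luminal secretory ratios was not tested. Tnc, Col9a1 and Fbn2 kept their direction and their call under all 13 alternative settings run, with ranges of -2.29 to -1.38, -2.16 to -1.29 and 2.44 to 3.88.

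**Figure D4:**
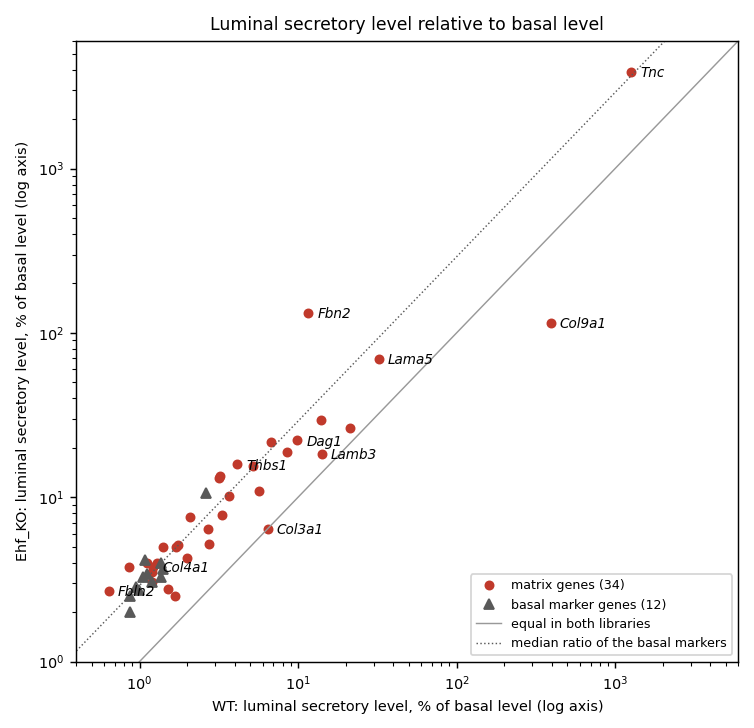
Level on plain CPM in luminal secretory cells as a percent of the level in basal cells, for 34 members and 12 basal marker genes. Wild type is on the x axis and knockout on the y axis (both log axes). The markers cluster at the lower left with a knockout value 2.91 times the wild type value at the median (dotted line); Tnc, Col9a1, Fbn2 and Lama5 lie far above them in at least 1 library.

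Among members that luminal secretory cells held well above the marker range, laminin genes did not move together. On plain CPM Lama5, an alpha chain of luminal and vessel basement membranes, stood at 69.4% and 32.2% of its basal level. It had 193 and 208 UMIs and a scaled ratio of 0.15 (-0.14 to 0.44). Lamb3 held 242 and 649 UMIs, or 9.97 and 22.3 CPM (-1.16, interval -1.38 to -0.95), though -0.30 on plain CPM and so inside the threshold there. Dag1 (770 and 744 UMIs, 0.31) and Agrn, the proteoglycan agrin (315 and 298 UMIs, 0.34), were within 1.5-fold on the main scaling. The count of Lamb3 over that of Lama3 was 4.4 (3.27 to 6.01) and 12.5 (9.40 to 16.9) in knockout and wild type luminal secretory cells, again lower in the knockout.

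Col3a1 and Col1a2 were also lower in knockout luminal secretory cells, with 18 and 76 UMIs (-1.82) and 13 and 39 UMIs (-1.32). Of the 76 wild type Col3a1 UMIs, 32 sat in 1 cell, so this ratio rests largely on that cell.

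Hormone-sensing cells held the highest level of Lama5 of the 4 classes, 43.3 and 55.9 CPM in knockout and wild type (53 and 35 UMIs, -0.37, interval -1.01 to 0.29). Only 9 members were measured there, and 0 were higher and 1 (11.1%) lower past 1.5-fold, against 9.24% and 8.42% over all 4407 genes. That member was Nid1, on chromosome 13 from 13437602 to 13512275, with 17 UMIs in 11 of 151 knockout cells and 45 UMIs in 29 of 125 wild type cells. Its levels were 13.9 and 71.9 CPM, a log2 ratio of -2.37 (-3.27 to -1.54), opposite to its ratio in basal cells. No wild type cell held more than 5 of the 45.

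Relative to basal cells Nid1 stood at 24.9% in knockout and 198% in wild type hormone-sensing cells, while the 12 basal markers lay between 1.96% and 6.34% and between 1.89% and 6.5%. Of the 13 fibroblast markers, 8, Lum, Dpt, Mfap5, Pdgfra and Pdgfrb among them, held 0 UMIs in hormone-sensing cells of either library, and the other 5 held 218 and 91 UMIs, so that the list summed to 178 and 145 CPM. Of 9 basal markers measured there 7 were lower in the knockout, with the list at 760 and 1305 CPM, and alveolar markers stood at 1440 and 27589 CPM. Their part in the Nid1 ratio was not tested. For Sparc, Thbs1, Col4a1, Lamc1, Agrn and Dag1 the counting interval of the ratio included 0 in this class on the main setting. Sparc came to 5.64 with free RNA subtracted, past 1.5-fold. Dag1 was lower past 1.5-fold with equal weight per cell and under both other doublet settings.

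In fibroblast-like cells 28 members were measured, and 1 (3.57%) was higher and 8 (28.6%) lower in the knockout past 1.5-fold, against 10.5% and 11.2% over all 1026 genes. The lower ones were Col6a3 (126 and 354 UMIs, -1.05, interval -1.35 to -0.75), Lamc1 (72 and 176 UMIs, -0.85), Col1a1 (474 and 1102 UMIs, -0.77, interval -0.93 to -0.62), Col5a3, Hspg2, Col1a2 (1575 and 3521 UMIs, -0.72, interval -0.80 to -0.63), Col3a1 (-0.71) and Col6a2 (-0.61). Sparc (768 and 1508 UMIs, -0.53), Fn1 (377 and 637 UMIs, -0.31) and Nid1 (227 and 329 UMIs, -0.09) were within 1.5-fold. Col18a1, the collagen that yields endostatin, was higher (68 and 61 UMIs, 0.60, interval 0.08 to 1.12), but not past the threshold with TMM factors or the stricter cell filter (0.49). Basal markers were lower in the same cells in 4 of 5 measured (229 and 661 UMIs, median -1.48) and alveolar ones in 3 of 6, while 1 of 12 fibroblast markers was lower (median -0.17). The hormone-sensing list was lower too (213 and 459 UMIs). Lists of few UMIs went the other way, among them luminal progenitor (23 and 20 UMIs, 164 and 105 CPM) and pericyte (46 and 52 UMIs, 327 and 272 CPM). So did the endothelial (16 and 12 UMIs) and myeloid (15 and 1 UMIs) lists. Their part in the member ratios was not tested. The count of Col1a1 over Col1a2 was 0.30 and 0.31, and that of Col3a1 over Col1a2 0.93 and 0.92. Col5a1 (79 and 137 UMIs, -0.35) and Col5a2 (204 and 284 UMIs, -0.04), fibrillar too, were within 1.5-fold. With 23 and 51 cells these are sums over few cells. With equal weight per cell 3 of 27 members were lower, and Col1a1, Col1a2, Col3a1 and Hspg2 were not among them. The share over all genes was not computed for that setting.

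**Figure D5:**
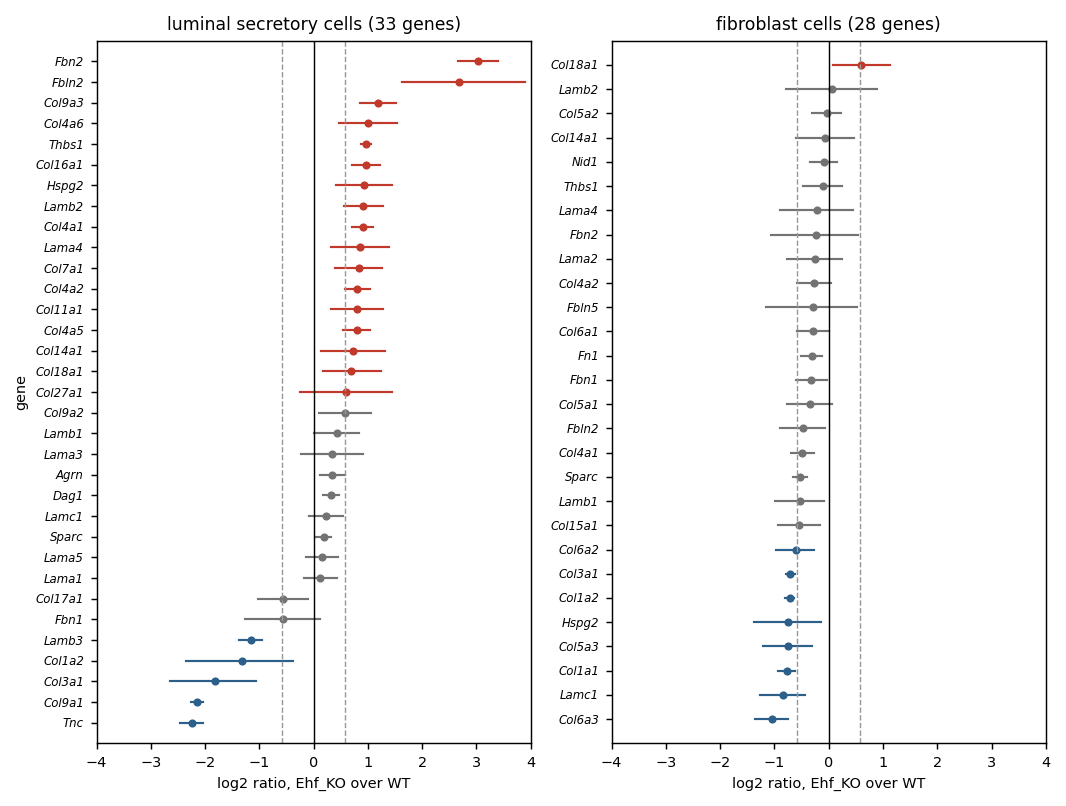
Log2 ratio of knockout over wild type with 95% counting intervals for 33 of the 34 members measured in luminal secretory and the 28 measured in fibroblast-like cells; dashed lines mark 1.5-fold. Luminal secretory ratios run from Tnc at -2.24 to Fbn2 at 3.02, and fibroblast-like ratios stay between -1.05 and 0.60.

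Enzymes that process collagen were mostly within 1.5-fold in basal cells, as were most of all genes measured there (12.5% passed it either way). Of 28 listed genes for hydroxylation, folding and crosslinking, 22 were measured in basal cells, and 0 were higher and 2 lower past 1.5-fold. These were Adamts2, the procollagen N-proteinase (110 and 130 UMIs, -0.95), and Colgalt2, a collagen galactosyltransferase (406 and 394 UMIs, -0.66), with Pcolce at -0.57 and P3h2 at -0.51 inside. Of 18 measured matrix proteases 1 was higher and 2 lower, with Plat, tissue plasminogen activator, at 89 and 27 UMIs (1.01). Of 8 measured protease inhibitors 3 were higher and 0 lower, led by Serpine2, an inhibitor of plasminogen activators (239 and 64 UMIs, 1.19). The share of all genes is 6.07% higher and 6.47% lower, as above.

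Matrix receptors included 0 higher and 3 lower of 23 measured in basal cells. Itga1, the alpha chain of a collagen and laminin receptor, was the lowest, with 611 and 1015 UMIs, 25.3 and 68.6 CPM and a ratio of -1.44 (-1.59 to -1.29), followed by Itgb6 (-0.67) and Bcam, a receptor of laminin alpha 5 (-0.64). Of 30 other matrix glycoproteins and proteoglycans 3 were higher and 4 lower. Vcan, versican, was higher with 3428 and 1097 UMIs, 142 and 74.1 CPM (0.94, interval 0.84 to 1.04), as was Mfap2, a microfibril protein (0.78), and Prelp, a collagen-binding proteoglycan, was lower (71.3 and 126 CPM, -0.82). Of 18 genes of TGF-beta signalling 1 was higher and 0 lower.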

How the data were processed

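The authors deposited raw UMI counts (whole numbers, not normalized), 1 matrix per library; the feature and barcode files hold names only. Per the submitters' processing notes, GRCm38 (mm10) and Seurat 4.0.4 were used; the aligner was not given in the sources used here, nor was the barcode rule. Features without a symbol (1314) held 1.74% and 1.36% of UMIs and stayed in library totals only. Cells with 500 genes, 1000 UMIs and a mitochondrial share up to 20% were kept; Scrublet, as built into scanpy 1.11.5, marked doublets in each library separately. Leiden clustering (leidenalg 0.10.2, resolution 1, 30 components, 2000 variable genes) left out members, milk, mitochondrial and ribosomal protein genes. UMIs were summed per library and class; zero counts were set to 3 for ratios. Named members were set by rule: laminin and type IV chains, basement membrane and adhesive glycoproteins with 50 UMIs in a class, the 6 highest levels per class, and members with 100 UMIs past 1.5-fold under 3 scalings (median ratio, plain, outside milk genes); from each other list up to 4 genes by ratio in basal cells. Others named were chosen after their values were seen. Members and lists were chosen with earlier results of these data known. Ratios were tested on simulated counts with known changes and counting error only. In these, 99 of 100 changes of 2-fold were recovered in basal and in luminal secretory cells. The simulation held no difference between animals, libraries or clusters, so it cannot check the ratios against those. TMM factors came from edgeR 4.0.16. No replicate exists, so no test was run. Values of 1 member and 1 other listed gene are not reported here.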

Additional observations from a re-analysis of the deposited data

Results flagged for a closer look

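Nid1 lay past 1.5-fold in opposite directions in 2 classes, under each of the 3 scalings: its log2 ratio was 0.64 in basal cells and -2.37 in hormone-sensing cells. Hspg2 did so in luminal secretory cells (0.93) and fibroblast-like cells (-0.74). With 1 library per genotype the difference between classes was not tested. In basal cells Nid1 came to 0.53 with the stricter cell filter, inside 1.5-fold. It kept its call in 3 of the 7 basal clusters where it had at least 50 UMIs. In hormone-sensing cells Nid1 rested on 17 and 45 UMIs, and no setting beyond the 3 scalings was run for it there. Hspg2 rested on 84 and 53 UMIs in luminal secretory cells, where its level was within the range of basal marker genes, and on 33 and 75 UMIs in fibroblast-like cells. It came to 0.28 in luminal secretory cells with no doublets left out and to -0.52 in fibroblast-like cells with equal weight per cell, both inside 1.5-fold.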

How the results depend on the processing

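No paired analysis was possible because each genotype has 1 library; for the same reason no library could be left out. Counts of members past 1.5-fold that moved by over 1.5 times were as follows, and the cause was not tested. For the settings in this paragraph the shares over all genes were not computed, so these counts describe the setting and not the members. On plain CPM the median of all luminal secretory genes was 0.86, itself past 1.5-fold. In luminal secretory cells 27 were higher and 3 lower on plain CPM (median 1.45), 8 and 3 of 18 with a minimum of 200 UMIs, 15 lower without a minimum, 8 of 19 higher with free RNA subtracted, and 8 higher and 9 lower of 36 with no doublets left out (median -0.040, Col4a2 -0.015). In basal cells 5 were lower with a minimum of 200 UMIs and 3 higher with the stricter cell filter, and Col1a2 came to 0.78 with free RNA subtracted. In hormone-sensing cells 12 were higher and 21 lower without a minimum, and 1 was higher with free RNA subtracted (Sparc at 5.64). In the same cells 2 were lower with equal weight per cell, 4 with no doublets left out and 2 with the wild type doublet threshold in both libraries. No member there reached 200 UMIs, so that setting gave no value. In fibroblast-like cells 0 were higher with TMM, with 200 UMIs and with the stricter cell filter, 11 higher and 16 lower without a minimum, 5 lower with free RNA subtracted and 3 lower with equal weight per cell.

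Within single basal clusters fewer members had counts. The share of all genes called the same way in that cluster follows each count in brackets. Cluster 0 gave 2 of 40 higher (12.2%), with Lama4 at -1.49. Cluster 2 gave 3 higher (4.73%) and 4 lower (5.64%) of 42. Cluster 5 gave 1 of 40 higher (13.5%), with Lama4 at -0.28 and Nid1 at -0.033. Cluster 6 gave 2 higher (6.53%) and 4 lower (7.14%) of 37, with Col6a1 at 0.11, Col6a2 at 0.26 and Nid1 at -0.16. Cluster 9 gave 5 of 38 lower (7.12%), with Lama4 at -0.65. Cluster 10 gave 2 higher (9.85%) and 2 lower (9.04%) of 26. Cluster 12 gave 2 higher (9.20%) and 3 lower (10.2%) of 24, and cluster 16 gave 1 higher (14.3%) and 4 lower (15.3%) of 13. The other 108 counts stayed within 1.5 times. Of the values of single members 922 moved by less than their counting interval, 208 moved more without a change of sign in a called value, and 9 changed sign as given above. Low counts limit hormone-sensing and fibroblast-like cells most.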

Other observations

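In luminal secretory cells several other genes of the matrix lists differed more than most members did; these were picked after their values were seen. Ccn3, a matricellular protein, had 2 knockout and 671 wild type UMIs (log2 ratio -8.13, interval -11.18 to -6.27). Igfbp7, which binds type IV collagen, had 38 and 495 UMIs (-3.44, interval -3.96 to -2.96), and Adamts5, a protease of aggrecan and versican, 389 and 1923 UMIs (-2.04, interval -2.20 to -1.88). Npnt, nephronectin, a basement membrane ligand of integrins, had 46 and 175 UMIs (-1.67), and Tgfbr2, a TGF-beta receptor, 307 and 888 UMIs (-1.27).

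On the higher side stood Vcan, a substrate of Adamts5, with 84 and 30 UMIs (1.75), Bcam with 323 and 116 UMIs (1.74), Mmp14, a membrane-bound collagenase, with 103 and 47 UMIs (1.39), and Cd44, a receptor of hyaluronan, with 255 and 141 UMIs (1.12). Bcam had a ratio of -0.64 in basal cells. None of these higher genes was set against the range of the basal markers or run under the other doublet settings. The part of basal RNA in their ratios was not tested. Of 17 matrix receptors measured in luminal secretory cells 4 were higher and 6 lower, and of 16 TGF-beta signalling genes 2 were higher and 5 lower, against 15.5% higher and 18% lower over all genes of the class.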
